A study of Physcomitrium patens with 6 samples.

Results

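The genes described here were almost without reads in untreated protonema of the moss Physcomitrium patens and had clear read levels after 60 minutes of abscisic acid (ABA). They were chosen by their measured values: a mean below 0.5 CPM over both libraries at 0 minutes and at least 10 CPM in each library at 60 minutes. CPM is reads per 1000000 gene reads, here after TMM scaling, which sets the libraries to a common level from the bulk of their genes. Of 32926 gene IDs, 112 (0.34%) met both limits. Because the 0 and 60 minute values made the choice, the difference between those times is described below and not tested. The libraries at 30 minutes took no part in the choice.

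Protonema, the branched filaments of a young moss plant, was sampled in 3 groups of 2 biological replicates, at 0, 30 and 60 minutes of ABA. Tissue aged 10 days was sonicated and grown for 3 days in shaken liquid medium before ABA was added. The ABA level is 10 µM in the series design but 10 mM in the treatment protocol, and the labels do not settle which applies. Controls received an equal volume of methanol, the carrier, and the labels name no strain. No library at 30 or 60 minutes was without ABA. For this reason ABA and time in culture after an addition cannot be told apart at 30 and 60 minutes.

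ABA is the plant hormone of drought, salt and cold responses. In land plants it binds receptors of the PYR/PYL family, which then block protein phosphatases of group A type 2C, and SnRK2 kinases freed from these phosphatases phosphorylate bZIP and other transcription factors. In moss protonema ABA is known to raise tolerance of freezing and drying, with an accumulation of late embryogenesis abundant proteins and soluble sugars. The count tables do not pair IDs with names, and none of the 32926 IDs matched the 27567 genes of the RefSeq table for assembly ASM5946719v1. No member can therefore be assigned to a step of this pathway, and members are given by ID, with no function and no sequence. For the same reason the tissue could not be checked against marker genes.

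Gene reads summed to between 12450250 and 17822775 per library. At 0 minutes the 112 genes together had 482 and 460 reads in the 2 libraries. At 30 minutes they had 80592 and 57397 reads, and at 60 minutes 127192 and 144087. As a share of all gene reads this was 0.00275% ± 7.01e-05 (SD, n = 2) before ABA. The share was 0.46% ± 0.00183 after 30 minutes and 0.806% ± 0.0218 after 60 minutes. The share at 60 minutes was spread over many genes, since the 10 with the highest levels held 31.3% and 31.6% of the members' reads in the 2 libraries. In whole tissue, more RNA per cell and more cells of a type cannot be told apart.

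**Figure D1:**
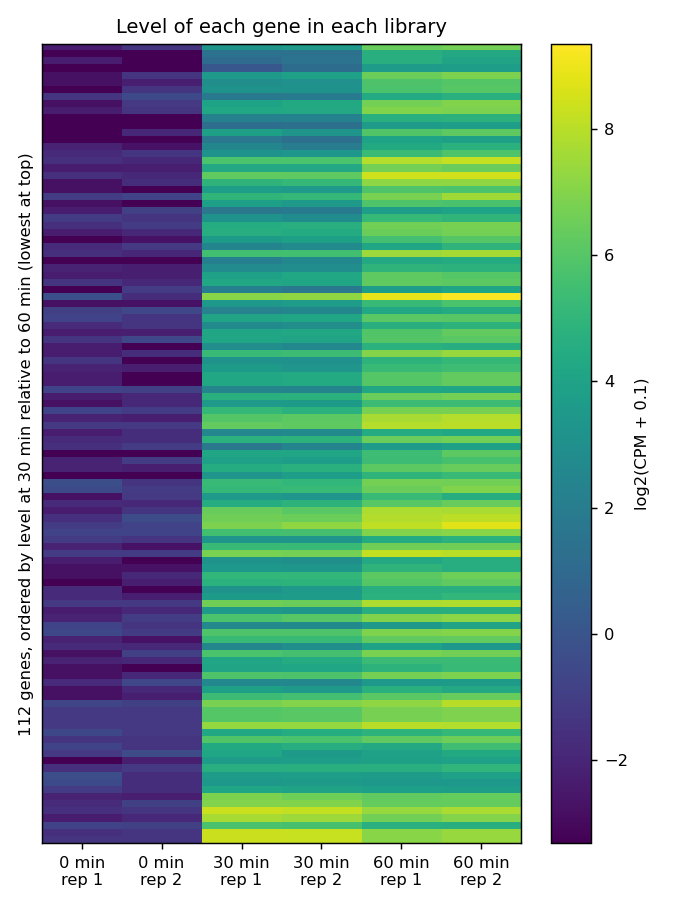
Level of each of the 112 genes (rows, ordered by the ratio of the 30 to the 60 minute level) in each of the 6 libraries (columns), as log2(CPM + 0.1). All rows are dark in both 0 minute columns, as the choice required, and all are brighter in both 30 minute columns; at the bottom lie genes that are brighter at 30 than at 60 minutes.

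The near-silent state at 0 minutes was rarely a complete absence of reads. Of the 112 genes, 8 had no read in either 0 minute library, 16 had 1 to 3 reads over both libraries and 88 had more. Their median level was 0.183 CPM, where 3 reads in a library correspond to 0.143 CPM in replicate 1 and 0.162 CPM in replicate 2. Single-gene values at 0 minutes therefore rest on very few reads, and the intervals given below cover counting error only.

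Near-silence at 0 minutes seldom ended in membership. In all, 14283 IDs lay below 0.5 CPM at 0 minutes, of which 9334 had no read in any library. At 60 minutes 13829 of the 14283 (96.8%) were still below 0.5 CPM on average, 251 reached 1 CPM in both libraries and the 112 members, 0.784%, reached 10 CPM in both. The reverse pattern, at least 10 CPM in both 0 minute libraries and below 0.5 CPM on average at 60 minutes, was met by 8 IDs.

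**Figure D2:**
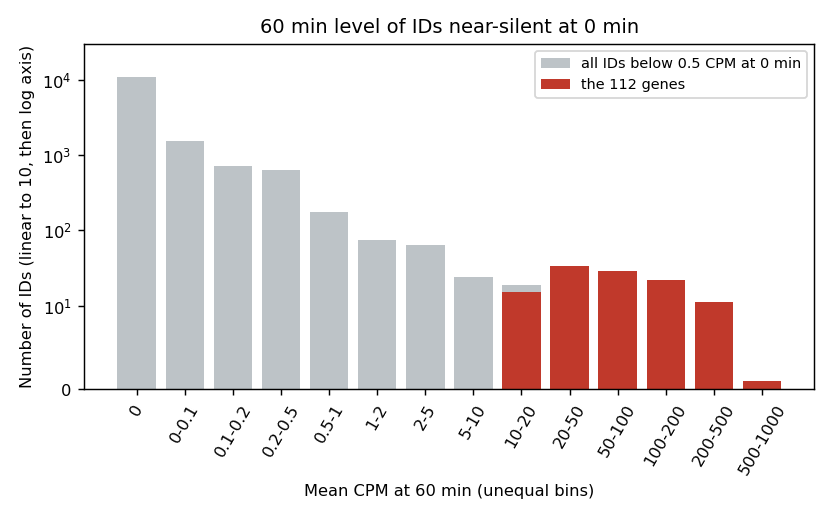
Number of IDs below 0.5 CPM at 0 minutes (grey) by their mean CPM at 60 minutes, in unequal bins, with the 112 members in red; the vertical axis is linear to 10 and logarithmic above. Most of the 14283 IDs stay in the bins below 0.5 CPM, and every ID in the bins above 20 CPM is a member.

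The limits of the rule cut through a continuous range. At the 0 minute limit Pp3c24_16120 was just inside with 13 and 7 reads (mean 0.50 CPM), and Pp3c12_26160 was just outside with 12 and 8 reads (mean 0.503 CPM). Pp3c12_26160 reached 398 and 379 CPM at 60 minutes, against 89.4 and 124 CPM for Pp3c24_16120. At the 60 minute limit Pp3c24_4450 was just inside with 10.6 and 10.8 CPM, and Pp3c4_20510 was just outside with 11.6 and 9.91 CPM. Genes on either side of a limit are thus within counting error of each other on the value that separated them.

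At 60 minutes the members' mean levels ran from 10.7 to 572 CPM, with a median of 66.0. In 34 genes the mean was at least 100 CPM and in 15 it was below 20 CPM. The ratio of the 60 to the 0 minute level was taken for the 104 genes with any read at 0 minutes. It ran from 24.8 to 2208 with a median of 424. The lower end of the exact 95% counting interval was above 10 in each of the 104 genes. The rule required a low 0 minute level and a high 60 minute level, which sets a floor to this ratio. These intervals therefore describe counting error in the members and give no independent support for a rise. For the 8 genes with no read at 0 minutes only a lower bound can be given, taking 3 reads per library as the floor. These bounds ran from at least 86.0-fold to at least 371-fold higher, and with them the median over all 112 genes was 358. CPM is not divided by transcript length, so levels of different members do not rank their transcripts by abundance.

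The 4 genes with the highest CPM at 60 minutes were Pp3c14_21890, Pp3c3_22430, Pp3c1_37850 and Pp3c7_22640. Pp3c14_21890 had 0.764 and 0.216 CPM at 0 minutes, 137 and 152 CPM at 30 minutes and 493 and 651 CPM at 60 minutes. Its 0 minute level came from 16 and 4 reads, the widest gap between replicates among these 4 genes, and its 60 minute level was 1127 times higher (exact 95% counting interval 729.6 to 1846).

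Pp3c3_22430 had 0.382 and 0.487 CPM at 0 minutes, 116 and 149.9 CPM at 30 minutes and 286 and 436 CPM at 60 minutes. Pp3c1_37850 had 0.239 and 0.162 CPM, then 75.8 and 73.5 CPM, then 342 and 362 CPM. Pp3c7_22640 had 0.382 and 0.379 CPM, then 111 and 103 CPM, then 289 and 266 CPM. In all 4 genes the 3 times did not overlap, where the rule itself required the gap between 0 and 60 minutes. Of all genes tested, 36.4% had both 30 minute libraries above both 0 minute libraries. Both 60 minute libraries lay above both 30 minute libraries in 33.7%. The 60 minute libraries lay closer together in Pp3c1_37850 and Pp3c7_22640 than in Pp3c14_21890 and Pp3c3_22430.

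Reads from the members were plentiful by 30 minutes. All 112 genes were called higher at 30 than at 0 minutes (adjusted p below 0.05 in edgeR's quasi-likelihood F test over 18949 genes), where 19.6% of all genes tested were called higher. Of all genes tested 16.8% were called lower, a split that moved to 14.7% higher and 22.9% lower with total counts and to 13.5% and 35.2% with upper-quartile factors. Both 30 minute libraries lay above both 0 minute libraries in all 112, against 36.4% of all genes tested. This comparison shares its 0 minute libraries with the choice of the genes, which had to be low there, so the count is a description of the members and no independent support. What the rule did not fix is the 30 minute level itself. It ran from 1.57 to 318 CPM with a median of 17.7, and 77 of the 112 (68.8%) already had at least 10 CPM in both 30 minute libraries, while 28 were below 10 CPM in both. In 111 genes both 30 minute libraries were at 1 CPM or more.

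Against the 0 minute level, the 30 minute level was 8.15 to 1526 times higher in the 104 genes with reads at 0 minutes, with a median of 132. The lower end of the counting interval was above 10 in 97 of these 104. In the 8 genes with no read at 0 minutes the 30 minute level was at least 10.3-fold to at least 115-fold higher.

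For most members the second 30 minutes brought the larger gain in CPM. At 30 minutes the members had a median of 30.1% of their 60 minute level, with quartiles of 24.1% and 49.0%. In 87 of 112 genes (77.7%) the gain in CPM from 30 to 60 minutes was larger than that from 0 to 30 minutes. For all genes tested the median 30 minute level was 99.4% of the 60 minute level. The 60 minute values helped choose the members, which favours a low percentage.

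In the comparison of 60 with 30 minutes, 98 members (87.5%) were called higher, where 17.4% of all genes tested were. A further 7 (6.25%) were called lower, where 18.5% of all genes tested were, and 7 had no call. The shares of all genes tested depended on the scaling, at 6.75% higher and 35.3% lower with total counts and 12.8% and 22.9% with upper-quartile factors. Under these scalings 94 and 98 members were called higher, and 8 and 7 lower. Both 60 minute libraries lay above both 30 minute libraries in 99 members (88.4%), against 33.7% of all genes tested. The median log2 fold change was 1.74 over the 112 members and 0.01 over all genes tested. With total counts in place of TMM these medians were 1.42 and -0.31. A change of scaling moves the log2 fold change of every gene by nearly the same amount. The gap between the medians is therefore kept by construction and says nothing about how it depends on the scaling. The rule required high 60 minute levels, so these counts too describe the members.

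**Figure D3:**
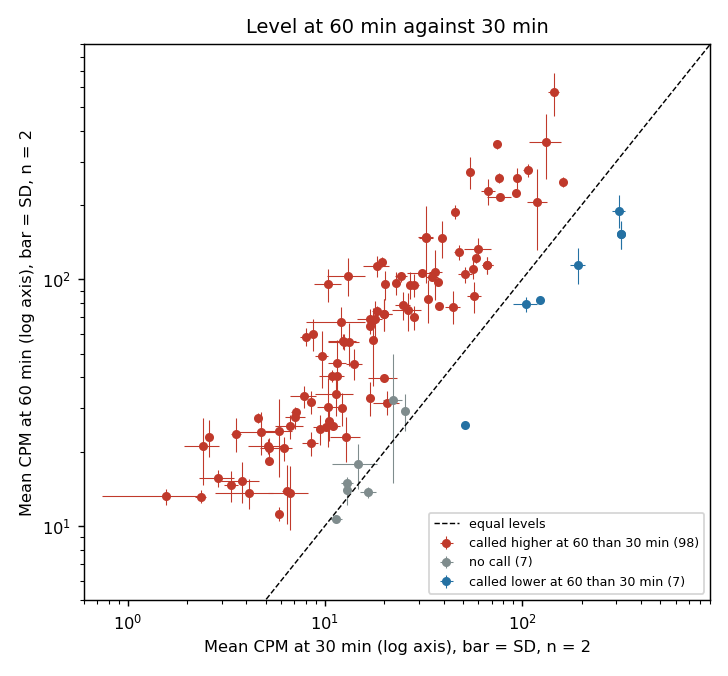
Mean CPM at 60 minutes against mean CPM at 30 minutes for the 112 genes, both on log axes, with bars for the SD of 2 libraries and a dashed line for equal levels. The 98 genes called higher at 60 minutes lie above the line, the 7 called lower lie below it and the 7 with no call lie near it, between 10 and 40 CPM.

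The 98 genes that went on rising had between 10.9% and 66.9% of their 60 minute level at 30 minutes (median 28.4%), with log2 fold changes from 0.58 to 3.20. The lowest percentages belonged to Pp3c12_11870, Pp3c14_10490 and Pp3c10_17490. Pp3c12_11870 had 0.0955 and 0.271 CPM at 0 minutes, 9.24 and 11.6 CPM at 30 minutes and 85.0 and 106 CPM at 60 minutes. It rose by a log2 fold change of 3.20 (SE 0.17, adjusted p = 1.57e-06 in edgeR's quasi-likelihood F test) in the second 30 minutes, after being 57.5 times its 0 minute level (counting interval 27.6 to 144) at 30 minutes.

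Pp3c14_10490 had no read at 0 minutes, then 2.62 and 2.53 CPM, then 25.6 and 20.1 CPM. Pp3c10_17490 had 2 reads and 0 reads at 0 minutes, then 2.08 and 2.76 CPM, then 25.5 and 16.5 CPM. Between 30 and 60 minutes Pp3c14_10490 rose by a log2 fold change of 3.14 (SE 0.20, adjusted p = 5.29e-06 in edgeR). The change of Pp3c10_17490 was the same size with a wider error (SE 0.27, adjusted p = 1.35e-05 in edgeR). In each, the 60 minute libraries lay well above the 30 minute libraries, and replicate 1 was the higher library at 60 minutes.

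The 8 genes without a read at 0 minutes were Pp3c23_8960, Pp3c21_2830, Pp3c22_7050, Pp3c14_10490, Pp3c10_13280, Pp3c17_21080, Pp3c3_14410 and Pp3c9_6339. At 60 minutes they had a median of 21.9 CPM (13.1 to 56.7), against 69.6 CPM for the 104 others, and at 30 minutes 11.3% to 33.3% of the 60 minute level (median 18.1%, against 31.2%). All 8 were called higher at 60 than at 30 minutes, as were 90 of the 104 others and 17.4% of all genes tested. A low level at every time moved with the absence of reads at 0 minutes, and its part in the lower percentage was not tested.

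Pp3c23_8960 reached 17.2 and 17.9 CPM at 30 minutes and 42.8 and 70.6 CPM at 60 minutes, so its replicates were closer at 30 than at 60 minutes. Pp3c21_2830 reached 9.68 and 13.2 CPM and then 29.8 and 38.9 CPM. Pp3c22_7050 had 4.59 and 4.61 CPM and then 26.4 and 28.3 CPM, at least 179-fold above the floor at 60 minutes. In the second 30 minutes it rose by a log2 fold change of 2.57 (SE 0.16, adjusted p = 4.59e-06 in edgeR's quasi-likelihood F test).

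A small set of members was highest at 30 minutes. The 7 genes called lower at 60 than at 30 minutes had 132% to 209% of their 60 minute level at 30 minutes. They were Pp3c17_13980, Pp3c17_14000, Pp3c17_14020, Pp3c17_14041, Pp3c4_12320, Pp3c9_10840 and Pp3c9_20120. Their 60 minute levels remained far above the 0 minute levels, at 56.3 times for Pp3c9_20120 (counting interval 35.4 to 95.5) and more for the other 6, so the fall was partial.

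Pp3c9_20120 had 0.477 and 0.433 CPM at 0 minutes, 52.7 and 49.8 CPM at 30 minutes and 26.3 and 25.1 CPM at 60 minutes. It fell by 1.0 on the log2 scale (SE 0.12, adjusted p = 8.84e-05 in edgeR's quasi-likelihood F test), with replicates close at each time. Pp3c4_12320 had 0.191 and 0.433 CPM, then 125 and 122 CPM, then 82.3 and 82.8 CPM. It fell by 0.58 (SE 0.11, adjusted p = 0.00256 in edgeR).

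Pp3c9_10840 had 0.143 and 0.108 CPM, then 114 and 93.8 CPM, then 75.3 and 82.8 CPM. It fell by 0.40 (SE 0.12, adjusted p = 0.0252 in edgeR), the smallest fall of the 7. This call was lost in DESeq2 (adjusted p = 0.0717), without replicate 1 at 30 minutes (adjusted p = 0.32) and, narrowly, without either 0 minute library (adjusted p = 0.0512 and 0.0505).

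The other 4 genes of this set carry IDs from a single short stretch. The count tables give no positions, so a stretch here means IDs that follow each other in number and nothing more. Pp3c17_14000 had 0.286 and 0.271 CPM at 0 minutes, 321 and 315 CPM at 30 minutes and 138 and 166 CPM at 60 minutes, and fell by 1.06 on the log2 scale between 30 and 60 minutes (SE 0.12, adjusted p = 6.11e-05 in edgeR). Pp3c17_14041 had 0.239 and 0.271 CPM, then 326 and 292 CPM, then 169 and 210.5 CPM, and fell by 0.70 (SE 0.13). Pp3c17_13980 had 0.0955 and 0.162 CPM, then 203 and 179.7 CPM, then 101 and 128 CPM, and fell by 0.74 (SE 0.13).

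The flanking IDs did not share this course. Pp3c17_13960 went from 2.39 and 2.49 CPM to 6.46 and 8.05 CPM at 60 minutes, and Pp3c17_14050 from 6.11 and 5.52 CPM to 2.84 and 2.73 CPM. Pp3c17_14010, between the 4 members, had no read in any library.

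Counts within the stretch were not all distinct. Pp3c17_14000 and Pp3c17_14020 had 5873 and 5859 reads in replicate 1 at 30 minutes and 4098 and 4091 in replicate 2. At 60 minutes they had 1950 and 1953 reads in replicate 1, and 2304 and 2323 in replicate 2. Their counts differed by at most 0.818% in any treated library, while the other pairs among the 4 genes differed by 20.7% to 42.9% in at least 1 of them.

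Near-identical counts were searched for among all members, allowing a difference of 2% or 1 read in every library and at most 10 steps in the order of IDs. There were 4 such pairs, holding 8 of 112 members (7.14%), against 557 of 12061 tested IDs with at least 100 reads in each 60 minute library (4.62%). The pair Pp3c11_21990 and Pp3c11_21996 had the same count in every library, from 7 and 6 reads at 0 minutes to 1517 and 1673 at 60 minutes. Pp3c23_8530 and Pp3c23_8550 had 914 and 913 reads in replicate 1 at 60 minutes and the same count in all 4 libraries at 0 and 30 minutes. Pp3c19_6540 and Pp3c19_6580 differed by at most 3 reads, with 829 reads each in replicate 1 at 60 minutes.

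Reads of these pairs may have been counted under both IDs, from overlapping gene models or near-identical copies, which cannot be told apart here. Counting each pair a single time leaves 108 profiles, of which 95 were called higher and 6 lower at 60 than at 30 minutes. The members' share of gene reads at 60 minutes is then 0.773% in place of 0.806%.

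Pp3c10_13270 and Pp3c10_13280 were the other members with neighbouring IDs, and their counts differed. Pp3c10_13270 had 1 read in each 0 minute library, 10.7 and 12.4 CPM at 30 minutes and 38.0 and 53.6 CPM at 60 minutes. Pp3c10_13280 had no read at 0 minutes, then 4.37 and 5.91 CPM, then 19.9 and 22.1 CPM. Both followed the same course, with 25.3% and 24.4% of the 60 minute level at 30 minutes.

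A second stretch of IDs, singled out after its values were seen, held 2 members beside genes that lay above the 0 minute limit. Pp3c3_5170 had 0.0477 and 0.216 CPM at 0 minutes, 30.5 and 34.5 CPM at 30 minutes and 144 and 152 CPM at 60 minutes. Pp3c3_5250 had 0.143 and 0.108 CPM, then 63.1 and 70.9 CPM, then 209 and 247 CPM. Between and beside them, Pp3c3_5150 had 1.0 and 0.974 CPM at 0 minutes and 1007 and 1266 CPM at 60 minutes, and Pp3c3_5200 had 1.86 and 1.68 CPM and then 1464 and 1839 CPM. These genes fell outside the choice only because of their 0 minute level.

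The counts of Pp3c3_5150 were also those of Pp3c3_5210 and Pp3c3_5260 to within 0.506% in each treated library, and those of Pp3c3_5200 matched Pp3c3_5270 to within 0.727%. The 2 members of the stretch differed from each other and from these genes by at least 51.6% in some treated library. At 30 minutes the 7 IDs had 22.0% to 33.5% of their 60 minute level.

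**Figure D4:**
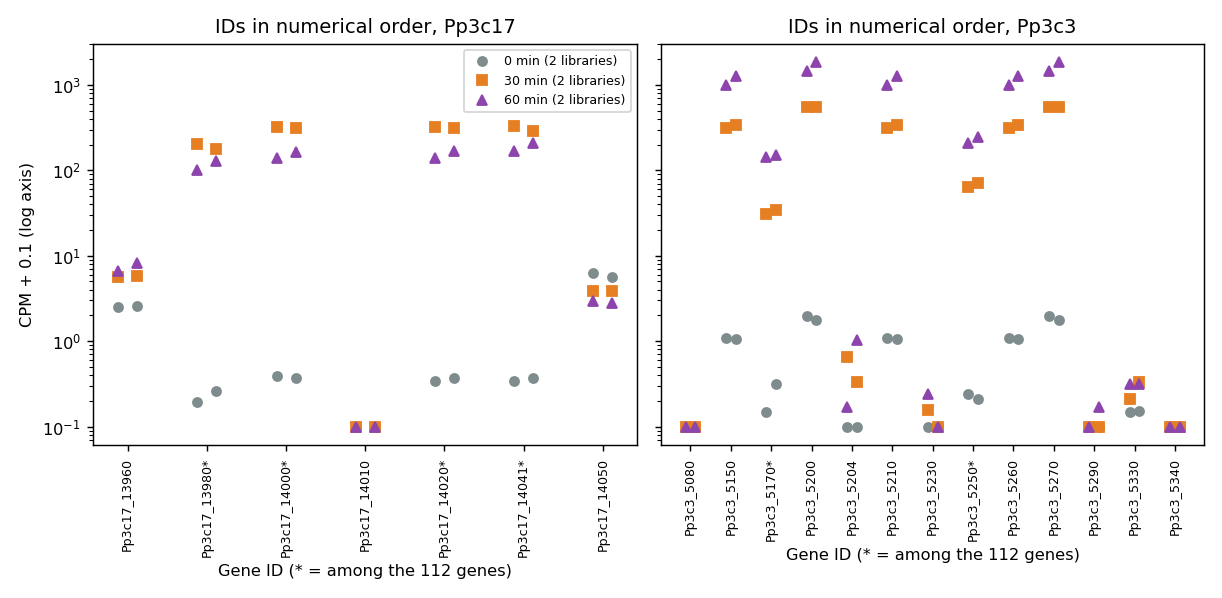
CPM + 0.1 on a log axis in each of the 6 libraries for IDs in numerical order in 2 stretches, with members marked by an asterisk. In the Pp3c17 stretch the 4 members are higher at 30 than at 60 minutes, and in the Pp3c3 stretch 2 members and 5 other IDs are highest at 60 minutes.

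Members carried IDs of 24 of the 27 Pp3c prefixes and none of the 692 IDs that begin with Pp3s. The most, 10 of 1815 IDs, had the prefix Pp3c3, and there were none among 1070 IDs of Pp3c13, 716 of Pp3c26 and 420 of Pp3c27. The IDs next to the members numbered 211 that were not members themselves, and 58 of these had no read in any library. Of the 117 that were tested, 60 (51.3%) were called higher at 60 than at 0 minutes, where 28.4% of all genes tested were. The count fell to 36 (30.8%) with total counts, against 14.9% of all genes tested, and to 40 (34.2%) with upper-quartile factors, against 17.4%. Among the 117, 18 (15.4%) were called higher by 8-fold or more, against 3.96% of all genes tested. The median log2 fold change of these neighbours was 0.39, against -0.04 for all genes tested. Whether neighbours share reads with members beyond the near-identical pairs was not tested.

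Genes that lay just above the 0 minute limit followed much the same course. The 63 IDs with 0.5 to below 1 CPM at 0 minutes and at least 10 CPM in both 60 minute libraries had a median of 35.8% of their 60 minute level at 30 minutes, against 30.1% for the members. Of these, 55 (87.3%) were called higher and 2 (3.17%) lower at 60 than at 30 minutes. The 139 near-silent IDs that reached 1 CPM but not the 10 CPM limit in both 60 minute libraries had a median of 45.6%, and 81 of them (58.3%) were called higher at 60 than at 30 minutes. These lists differ in read depth as well as in level, and no difference between them was tested.

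After TMM scaling, replicates of the members were closer at 30 than at 60 minutes. The ratio of replicate 2 to replicate 1 had a median of 1.03 at 30 minutes and 1.14 at 60 minutes, where the medians over all genes tested were 0.987 and 1.01. At 60 minutes 84 of 112 members (75%) were higher in replicate 2, against 50.9% of all genes tested. The replicates differed by more than 1.5 times for 9 members at 60 minutes and for 3 at 30 minutes. These values contain the TMM factors of replicates 1 and 2, which were 1.04 and 1.046 at 30 minutes. At 60 minutes the factors were 0.8752 and 0.7932, further apart and lower in replicate 2. Ratios without these factors were not computed, so the wider gap at 60 minutes holds for TMM scaling only.

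The widest gaps at 60 minutes were in Pp3c11_14810 and Pp3c5_13360. Pp3c11_14810 had 20.3 and 23.9 CPM at 30 minutes, and at 60 minutes 20 and 44.6 CPM, so that replicate 1 at 60 minutes lay below both 30 minute libraries and replicate 2 above both. It had no call between these times (log2 fold change 0.55, SE 0.28, adjusted p = 0.152 in edgeR), and its value rested on the 60 minute replicates. Without replicate 1 at 60 minutes the log2 fold change was 1.02 (adjusted p = 9.12e-06 in edgeR) and without replicate 2 it was -0.14 (adjusted p = 0.504 in edgeR). With no low-count filter it was called at 0.55 (adjusted p = 0.0156 in edgeR). Pp3c5_13360 had 109 and 129 CPM at 30 minutes and 153 and 257 CPM at 60 minutes. Its log2 fold change was 0.79 (SE 0.20, adjusted p = 0.00959 in edgeR), and the call was lost with total counts (adjusted p = 0.0662) and without replicate 1 at 30 minutes (adjusted p = 0.086).

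**Figure D5:**
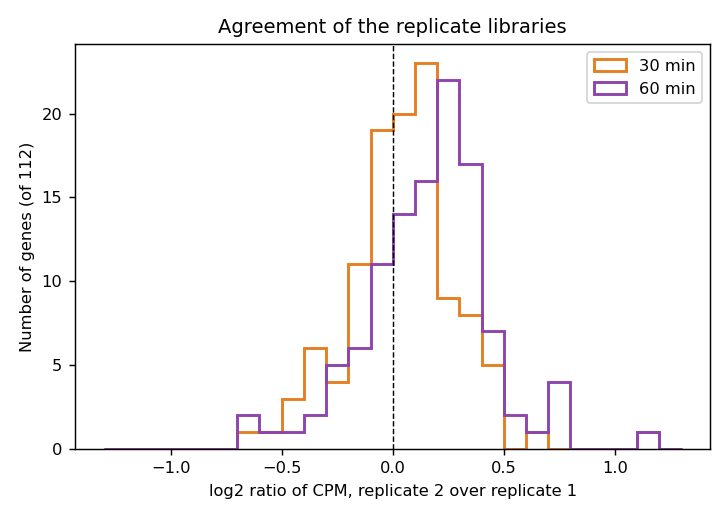
Distribution over the 112 genes of the log2 ratio of CPM in replicate 2 to that in replicate 1, at 30 minutes (orange) and at 60 minutes (purple); the dashed line marks equal levels. After TMM scaling the 60 minute distribution is shifted to the right, with 84 of 112 genes above 0.

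The choice itself was repeated with a single replicate and read in the other. On replicate 1 of the 0 and 60 minute groups, 116 IDs met the limits, and 98 of them (84.5%) met both limits in replicate 2 as well. Of the rest, 15 missed the 0 minute limit and 3 the 60 minute limit. In replicate 2 the 116 had medians of 0.216 CPM at 0 minutes and 69.5 CPM at 60 minutes, and none was above 1.41 CPM at 0 minutes or below 7.04 CPM at 60 minutes. Chosen on replicate 2, there were 122 IDs, and 98 (80.3%) met both limits in replicate 1. These are the same 98 IDs, since either order keeps the IDs that meet the limits in both replicates. The equal counts are therefore not separate checks. Of the rest of the 122, 19 missed the 0 minute limit only, 4 the 60 minute limit only and 1 both. None of the 122 was above 0.955 CPM at 0 minutes in replicate 1. Most misses were thus of the 0 minute limit alone, with the 60 minute limit met.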

How the data were processed

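Per the labels' protocols, RNA was extracted with Trizol and libraries were made with a stranded mRNA kit. The authors deposited whole-number read counts per gene ID for each library. Cutadapt, TopHat, HTSeq and DESeq2 appear, without versions, in the submitters' processing notes. Genome build, annotation and strand setting: not given in the sources used here. The 5 summary rows, of which reads in no gene took 1.66% to 2.14% of a library and the other 4 were 0, were left out. Genes passing filterByExpr (minimum count 10, minimum total 15) numbered 18949. All 112 members were among them, and the 60 minute level of each was enough to pass. The 18949 genes were scaled by TMM and fitted in one model of 3 groups with edgeR 4.0.16 (R 4.3.3), leaving 3 residual degrees of freedom. A call is a Benjamini-Hochberg adjusted p below 0.05 over all genes tested, and the SE is the log2 fold change over the square root of F. The functions were tested on simulated data. Genes given a change there had more expected reads at 0 minutes than the members, so calls from a near-silent start were not covered. Count ratios use pooled reads with exact Clopper-Pearson intervals. The members and lists were chosen with earlier results of these data known. Named members are the 4 highest at 60 minutes, the 3 highest and 3 lowest ratios of 30 to 60 minutes, the 3 highest without a read at 0 minutes, the 2 widest replicate gaps, those at the limits, and neighbouring IDs; others named (the members called lower, the remaining genes without a read at 0 minutes, and the Pp3c3 stretch with flanking IDs) were chosen after their values were seen. Alternatives covered scaling, limits, filter, tool, fold threshold, replicate block and each library left out, with DESeq2 1.42.0 and limma 3.58.1.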

Additional observations from a re-analysis of the deposited data

Results flagged for a closer look

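In 29 of the 31 named members the 60 and 30 minute levels were called different. Of all genes tested, 17.4% were called higher and 18.5% lower at 60 than at 30 minutes. The 31 hold the 4 near-identical pairs, with both IDs of each pair counted. All members had been chosen for high 60 minute levels, and some of those named for their ratio of 30 to 60 minutes or for their fall, so these values describe the members and are no independent finding. The log2 fold changes were 1.99 for Pp3c14_21890, 1.44 for Pp3c3_22430, 2.24 for Pp3c1_37850 and 1.37 for Pp3c7_22640, the genes with the highest 60 minute CPM. They were 3.20, 3.14 and 3.14 for Pp3c12_11870, Pp3c14_10490 and Pp3c10_17490, and 1.69, 1.6 and 2.57 for Pp3c23_8960, Pp3c21_2830 and Pp3c22_7050. Among neighbouring IDs they were 1.99 and 2.05 for Pp3c10_13270 and Pp3c10_13280, 0.77 each for Pp3c11_21990 and Pp3c11_21996, 2.16 each for Pp3c19_6540 and Pp3c19_6580, and 1.87 each for Pp3c23_8530 and Pp3c23_8550. Pp3c3_5170 and Pp3c3_5250 had 2.19 and 1.76, Pp3c24_16120 had 1.55 and Pp3c5_13360 had 0.79. Values were negative for Pp3c17_13980 (-0.74), Pp3c17_14000 (-1.06), Pp3c17_14020 (-1.05), Pp3c17_14041 (-0.70), Pp3c9_20120 (-1.0), Pp3c4_12320 (-0.58) and Pp3c9_10840 (-0.40).

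Reads outside annotated genes, used in no comparison, averaged 2.01% of each library at 30 minutes and 1.93% at 60 minutes, above both 0 minute libraries (1.67% and 1.66%).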

How the results depend on the processing

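The count of 112 members was 94 with total counts, 95 with upper-quartile factors and 114 with DESeq2 size factors, and 113 to 117 with a library left out, of which 104 to 112 were members of the full list. It followed the 0 minute limit most, with 68 genes at a limit of 0.25 CPM and 175 at 1 CPM. The counts meeting the rule in the held-out replicate were then 55 and 154. Each is the same list whichever replicate is used for the choice. The median 30 minute level was 0.378 of the 60 minute level with total counts, against 0.301 with TMM. Members' share of gene reads at 60 minutes was 0.758% without the gene with the most reads and 0.773% with near-identical members counted a single time, an alternative chosen after seeing the data. Where calls also needed a change of 1 or more on the log2 scale, 2 members were lower at 60 than at 30 minutes, in place of 7, and 87 higher. The 2 were Pp3c17_14000 and Pp3c17_14020, a near-identical pair that may hold the same reads. In the other settings run, 94 to 100 members were called higher and 6 to 8 lower, and all 112 stayed higher at 30 than at 0 minutes. With the replicate number as a block these counts were 98, 7 and 112. No label ties a replicate number to a shared culture. Across genes, the deviations of same-numbered libraries had r of -0.0649 for 0 and 30 minutes and 0.0209 for 0 and 60 minutes. For 30 and 60 minutes r was 0.296. Of 434 values for 31 named members over 14 alternatives, 417 kept their direction and side of the threshold, 14 lost the call and 2 gained it. The remaining value changed sign: Pp3c11_14810, not called at 0.55, had a log2 fold change of -0.14, again not called, without replicate 2 at 60 minutes, and 1.02 without replicate 1. With 2 libraries per time and few reads at 0 minutes, depth limits single 0 minute levels.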

Other observations

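Besides the members, 2 of the 79 near-silent IDs that reached 10 CPM in both 30 minute libraries did not hold it in both 60 minute libraries. Pp3c22_650 had 0 and 0.0541 CPM at 0 minutes, 12.9 and 12.1 CPM at 30 minutes and 6.03 and 7.69 CPM at 60 minutes. Pp3c6_11140 had 0.669 and 0.325 CPM, then 12.9 and 14.1 CPM, then 7.38 and 10.9 CPM. Both were chosen after their values were seen, and both lay above the 60 minute level at 30 minutes, as did 9 of the 112 members.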
